A study of Mus musculus with 32 samples.

Results

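RNA-seq libraries of mouse embryonic stem (ES) cells lacking *Etv5* were compared directly with libraries of ES cells lacking *Rbpj*, both taken 16 h after release from self-renewal culture. The comparison held 5 of the 32 libraries of the series: 2 of Etv5-KO and 3 of RbpJ-KO, chosen by genotype and culture condition. Both genotypes were made in RGd2 cells, an ES cell line with a short-lived green fluorescent protein knocked into the *Rex1* (*Zfp42*) locus as a reporter of the naive state. All 5 cultures had been moved from 2i, the serum-free medium with inhibitors of MEK and GSK3, into plain N2B27 medium for 16 h (N16h). Every mutant library came from a different clonal line, clones c17 and c1 of Etv5-KO and clones c28, c33 and c36 of RbpJ-KO, so the spread within a genotype is the spread between clones. RGd2 cells at N16h (3 libraries: 2 of the parental line and 1 of a clonal derivative) are given as the untargeted level, and the same genotypes in 2i (3 libraries each) as the starting point. The labels, which were followed, give RGd2 3 libraries and Etv5-KO 2 at N16h. The study's methods name RGd2 as the condition with fewer replicates at that time.

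Each knockout was made with a pair of Cas9 guides in different exons, and clones were picked by a genomic PCR test for the deletion. The guide sites are shown because they define what was removed, and so which reads of the targeted gene can remain. Letters in lower case are the guide, capitals the protospacer-adjacent motif read from GENCODE transcripts on GRCm38.
Etv5 exon 8 guide: cgcagctccgccaccccttcAGG
Etv5 exon 9 guide: gaaatacccgcctctcatgtAGG
Rbpj exon 5 guide: tgacctttatccgcttgctgAGG
Rbpj exon 7 guide: gcttgacagtctgcccgtaaTGG
The *Etv5* sites lie at chr16:22401804-22401823 and chr16:22399336-22399355, in exons 8 and 9 of the matched protein-coding transcript of a gene on the minus strand. The *Rbpj* sites lie at chr5:53645980-53645999 and chr5:53649718-53649737, in exons 7 and 9 of the matched transcript of a gene on the plus strand. In the names of the guides these are exons 5 and 7. Between the outer ends of the guide sites lie 196 of 3975 exonic bases of *Etv5* (4.9%) and 278 of 5485 exonic bases of *Rbpj* (5.1%), so counts over the whole gene can persist in a line that carries the deletion.

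ETV5 is an ETS-family transcription factor of the PEA3 subgroup, whose expression and activity follow FGF and ERK signalling. RBPJ is the DNA-binding factor of the Notch pathway: without Notch it recruits corepressors to its target genes, and with the cleaved Notch intracellular domain it recruits coactivators. In naive ES cells, withdrawal of 2i starts the loss of naive factors such as NANOG, TBX3 and ESRRB and the gain of formative factors such as OTX2 and POU3F1. Both genes were deleted to ask what each contributes to this transition, and the direct contrast asks where the mutants differ from each other at the same hour.

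Counts on genes were 35126681 and 41656532 in Etv5-KO and between 18855525 and 25857469 in RbpJ-KO, and spike-ins took between 1.12% and 1.33% of all counts. The spike-in share, which sets the scale of every gene, was 1.18% ± 0.087 (SD, n = 2) in Etv5-KO and 1.28% ± 0.0688 (SD, n = 3) in RbpJ-KO (difference -0.102 percentage points, exact two-sided permutation p = 0.4, where this design cannot go below 0.2). The 6 undifferentiated ES cell markers *Pou5f1*, *Sox2*, *Nanog*, *Zfp42*, *Esrrb* and *Sall4* were at 63.9 to 576 FPKM (a depth- and length-scaled read density) in all 5 libraries. Of 11836 genes with a mean of at least 1 FPKM in either genotype, 138 differed by more than 2-fold between the Etv5-KO clones, 220 to 279 between RbpJ-KO clones, and 769 to 866 between any clone of one genotype and any of the other. The RbpJ-KO c36 library stood apart by genes of primitive endoderm, the extraembryonic sister lineage of the epiblast: the summed level of 12 markers was 15.3 FPKM there, 2.56 and 3.87 FPKM in c28 and c33, and 1.83 to 2.12 FPKM in Etv5-KO. In the RGd2 libraries the same sum was 1.21 to 3.19 FPKM.

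Values per library are normalized counts, the deposited count divided by a size factor from the spike-ins. Fold changes are Etv5-KO minus RbpJ-KO on the log2 scale, so a positive value is a higher level in Etv5-KO, and each adjusted p comes from the quasi-likelihood test of edgeR, corrected by the Benjamini-Hochberg method across every tested gene. *Etv5* (ENSMUSG00000013089.15, chr16:22381309-22439719) had normalized counts of 3373 and 2734 in Etv5-KO against 12161, 11985 and 12474 in RbpJ-KO and 13157, 12468 and 11985 in RGd2 (log2 fold change -2.0 ± 0.18 (SE), edgeR adjusted p = 4.56e-11). *Rbpj* (ENSMUSG00000039191.12, chr5:53466152-53657362) had 2497, 2796 and 2797 in RbpJ-KO against 19050.1 and 19748 in Etv5-KO and 12766, 12629 and 12327 in RGd2 (log2 fold change 2.85 ± 0.23 (SE), edgeR adjusted p = 2.82e-12). Each targeted gene was therefore low in every library labelled as its knockout. Counts are per whole gene, so whether reads inside the deleted span were absent was not examined. Of the other PEA3 members, *Etv1* was 1.98-fold higher in Etv5-KO (2221 and 2306 against 1097, 1183 and 1151, edgeR adjusted p = 1.27e-06) and *Etv4* was 1.3-fold higher in RbpJ-KO (4143 and 4778 against 5637, 5624 and 6147, edgeR adjusted p = 0.042). The *Etv4* difference did not pass the threshold in any of the fits that left out 1 of the 5 libraries. *Rbpjl*, the paralog of *Rbpj*, was too low to be tested.

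The genotypes differed in 2117 genes at N16h (adjusted p under 0.05 and at least 1 FPKM), 17.9% of the 11836 genes past the FPKM minimum. Of these, 1460 were higher in Etv5-KO (12.3%) and 657 were higher in RbpJ-KO (5.55%). Every count of list members called at N16h below stands against these shares. Changes were mostly small: 317 of the 1460 and 237 of the 657 differed by at least 2-fold, and 58 and 54 by at least 4-fold. In 1459 of the 1460 and 655 of the 657 the libraries of the genotypes did not overlap, against 53.9% of all genes past the minimum. The calls were made on these same libraries, so this describes them and is no separate support. The excess on the Etv5-KO side depended on the scaling: 69.0% of calls were higher in Etv5-KO with spike-in size factors and 51.4% (1556 higher, 1469 lower) with TMM, which centres the genes themselves. The counts also rested on single clones: without clone c1 590 genes were higher and 412 lower in Etv5-KO, and without clone c17 1001 and 314; in these fits the remaining Etv5-KO library is assumed to vary like the other groups.

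**Figure D1:**
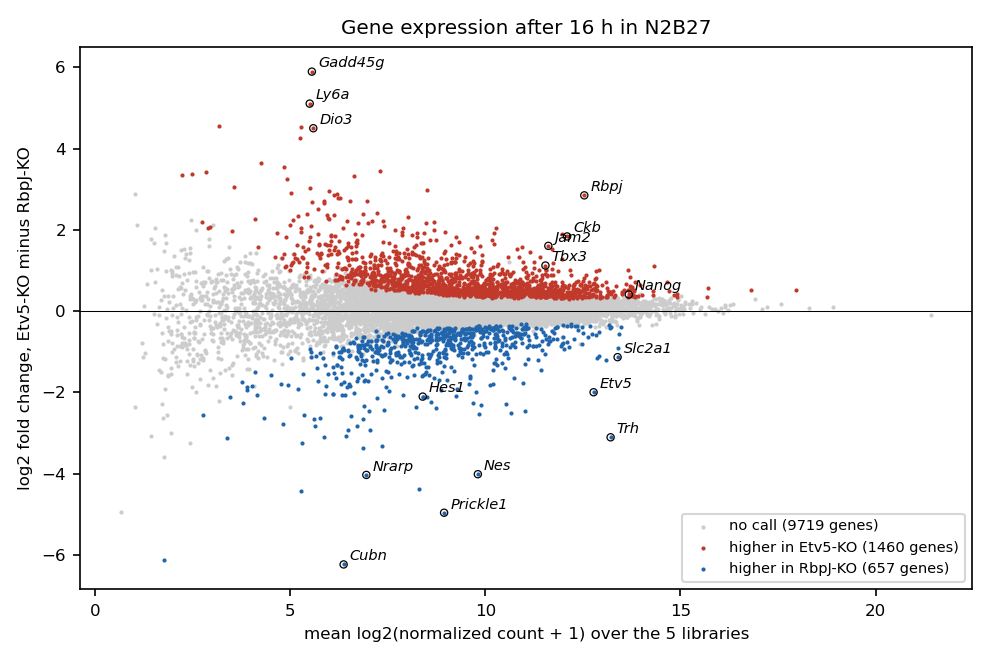
Log2 fold change at N16h (Etv5-KO minus RbpJ-KO, vertical) against mean log2(normalized count + 1) over the 5 libraries (horizontal), one point per gene past the FPKM minimum; red and blue mark the 1460 genes called higher in Etv5-KO and the 657 called higher in RbpJ-KO, and grey the genes with no call. *Gadd45g* lies near the top at 5.89, *Prickle1* and *Nrarp* near the bottom at -4.96 and -4.03, and most called genes within 2-fold of 0.

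Genes of the Notch pathway made up some of the largest differences, and most of its targets were higher in RbpJ-KO. Of 17 Notch and RBPJ target genes, 9 passed the FPKM minimum; 7 of these were higher in RbpJ-KO (*Prickle1*, *Nrarp*, *Hes1*, *Hey1*, *Dtx1*, *Notch3* and *Lgmn*), 1 was higher in Etv5-KO (*Gadd45g*), and *Hes6* was not called. Their median log2 fold change was -1.07, against 0.09 for all genes past the minimum. *Hes1*, the bHLH repressor that is the best known Notch target, had 142 and 137 in Etv5-KO, 625, 590.3 and 588 in RbpJ-KO and 78.4, 70.0 and 94.1 in RGd2 (log2 fold change -2.11 ± 0.17 (SE), edgeR adjusted p = 7.65e-12). *Nrarp*, a feedback inhibitor of Notch, had 21.4 and 23.9 in Etv5-KO, 388, 322 and 409 in RbpJ-KO and 12.6, 14.1 and 19.4 in RGd2 (log2 fold change -4.03 ± 0.26 (SE), edgeR adjusted p = 8.71e-15). All RbpJ-KO libraries were far above all Etv5-KO libraries for both, and Etv5-KO was closer to RGd2 than RbpJ-KO was. *Prickle1*, a planar cell polarity gene, showed the widest gap among the members higher in RbpJ-KO, 48.9 and 76.1 against 1876, 1856 and 2152, a 31.2-fold difference (log2 fold change -4.96 ± 0.23 (SE), edgeR adjusted p = 2.05e-19), with 43.6, 47.5 and 43 in RGd2. *Hey1*, a bHLH repressor related to *Hes1*, had 67.2 and 50.7 against 167, 172 and 188 (log2 fold change -1.58 ± 0.22 (SE), edgeR adjusted p = 1.54e-06), and 8.87, 6.79 and 9.21 in RGd2, so both mutants were above RGd2. *Dtx1*, which encodes a ubiquitin ligase acting on Notch, had 355 and 458 against 874, 808 and 888 (log2 fold change -1.07 ± 0.15 (SE), edgeR adjusted p = 6.36e-07). The *Lgmn* and *Notch3* differences were small (-0.43 and -0.5) and fell short of the threshold without either Etv5-KO clone. *Gadd45g*, a stress- and differentiation-induced gene, ran the other way, with 414 and 637 in Etv5-KO, 9.92, 6.83 and 9.09 in RbpJ-KO and 869.7, 833 and 595 in RGd2 (log2 fold change 5.89 ± 0.37 (SE), edgeR adjusted p = 6.66e-15); it was the largest called difference toward Etv5-KO among the genes named.

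The ligands and receptors were split. Of 14 receptors, ligands and their modifying enzymes, 10 passed the minimum, 3 were higher in RbpJ-KO and 3 in Etv5-KO. The ligand *Jag1* had 147 and 154 in Etv5-KO and 637, 661 and 650.3 in RbpJ-KO (log2 fold change -2.11 ± 0.19 (SE), edgeR adjusted p = 4.47e-11), with 268, 225 and 185 in RGd2. The ligands *Dll1* and *Jag2* were higher in Etv5-KO: *Dll1* had 348 and 465 against 68.5, 95.7 and 126 (log2 fold change 2.09 ± 0.22 (SE), edgeR adjusted p = 3.51e-09). *Jag2* had 376 and 455 against 194, 191 and 179 (log2 fold change 1.14 ± 0.21 (SE), edgeR adjusted p = 1.10e-04). In RGd2, *Dll1* was at 929.6, 848 and 542, above both mutants. Among the receptors, *Notch4* was lower in Etv5-KO (656 and 719.7 against 1395, 1366 and 1369, log2 fold change -1.0 ± 0.15 (SE), edgeR adjusted p = 5.84e-06). *Notch2* was higher (2152 and 2135 against 1364, 1503 and 1609.5, log2 fold change 0.52 ± 0.13 (SE), edgeR adjusted p = 0.0028). *Notch1* was at 1534 and 1692 against 2019.8, 2049.7 and 1960.0 and did not pass (log2 fold change -0.32, 95% interval -0.57 to -0.07, edgeR adjusted p = 0.0945). With TMM *Notch1* passed too, at -0.41 (edgeR adjusted p = 0.00143). Of 18 coactivators and corepressors of RBPJ, 16 passed the minimum and 12 were not called. The number higher in Etv5-KO, 2 of 16, was close to the 12.3% over all genes. The corepressor *Spen* (-0.79) and *L3mbtl3* (-0.79), whose product recruits a histone demethylase to RBPJ, were higher in RbpJ-KO. The corepressors *Ncor1* (0.51) and *Ctbp2* (0.5) were higher in Etv5-KO. *Ncor1* and *Ctbp2* lost the call without clone c1, and *L3mbtl3* without clone c17.

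**Figure D2:**
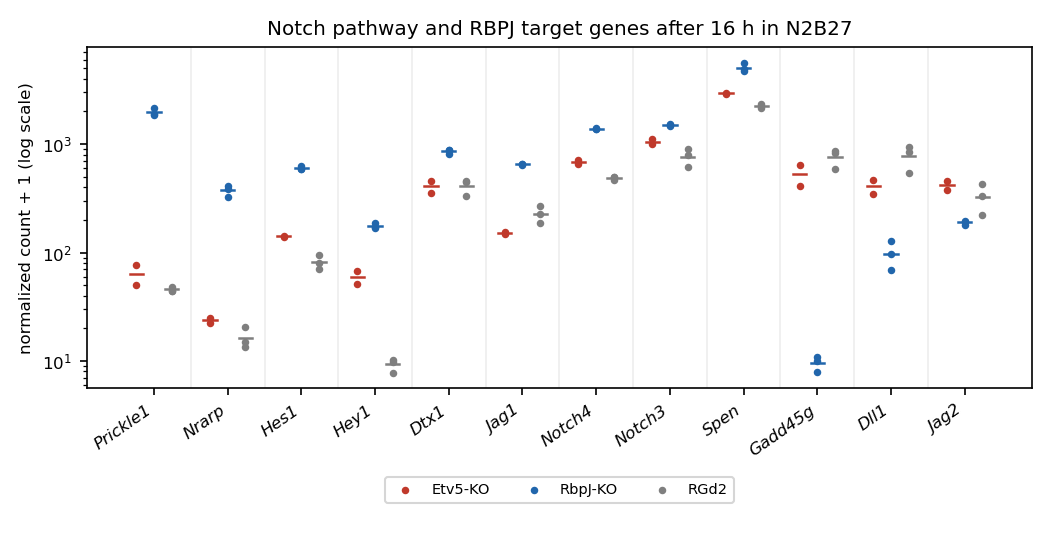
Normalized count + 1 (log scale) of Notch pathway and RBPJ target genes in each N16h library, points for libraries and lines for group means, with Etv5-KO in red, RbpJ-KO in blue and RGd2 in grey. The genes from *Prickle1* to *Spen* were higher in every RbpJ-KO library than in either Etv5-KO library, and *Gadd45g*, *Dll1* and *Jag2* were lower there.

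Outside the Notch lists, the genes highest in RbpJ-KO relative to Etv5-KO came from several tissues. *Nes*, which encodes the intermediate filament nestin of neural progenitors, had 175 and 162 in Etv5-KO, 2675, 2559 and 2940.0 in RbpJ-KO and 226, 256 and 178 in RGd2 (log2 fold change -4.02 ± 0.23 (SE), edgeR adjusted p = 3.01e-16). *Trh*, the thyrotropin-releasing hormone gene, reached 22789, 21345 and 23132 in RbpJ-KO against 2621 and 2579 in Etv5-KO and 1222, 1188 and 863 in RGd2 (log2 fold change -3.11 ± 0.22 (SE), edgeR adjusted p = 1.32e-13), so both mutants were above RGd2. *Nkx1-2*, a homeobox gene of the caudal epiblast, had 29.8 and 26.8 against 293, 276 and 304 (log2 fold change -3.36 ± 0.18 (SE), edgeR adjusted p = 7.49e-17). These genes kept the RbpJ-KO libraries in a narrow range. *Apln* (the peptide hormone apelin, -4.42), *Atp1a4* (a sodium pump subunit of sperm, -4.37), *St8sia6* (a sialyltransferase, -3.32), *Ttc29* (-3.11) and *Scgb3a1* (-3.13) completed the leading genes apart from *Cubn* and *Gata6*, which are given with the lineage markers. By p-value, *Nxn* (nucleoredoxin, 499 and 546 against 1936, 1716 and 1902, -1.83) and *Phc2* (a Polycomb repressive complex 1 subunit, 270.2 and 289 against 1055, 958 and 1155, -1.92) joined them. In RGd2, *Nxn* was at 511, 475 and 482 and *Phc2* at 277, 243 and 214, both nearer to Etv5-KO than to RbpJ-KO. Of the leading genes, *Scgb3a1* had few counts, at 4.58 and 0.7 in Etv5-KO against 26.8, 13.7 and 29.9 in RbpJ-KO. Its SE was 0.86, and the call was lost without clone c1.

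RefSeq promoter windows (GRCm38.p6, 250 bases before to 50 after the start) were at hand for 11 of the 12 genes with the largest excess in RbpJ-KO. The letters GTGGGAA, the core of the RBPJ binding motif, stood on either strand in 2 of these 11, those of *Atp1a4* and *Ttc29*, and in 7.25% of the windows of all 27025 genes of the table (7.21% of matched genes past the FPKM minimum). The ETS motif CCGGAAGT stood in none of the 11, in 4.31% of all genes and in 10.1% of matched genes past the minimum. Among the 7 Notch targets higher in RbpJ-KO, 5 had a window and none of these held either motif. *Hes1* and *Hey1* had no window, so their promoters were not examined. Among the 8 matched leading genes of the other direction, 1 (*Krtdap*) held GTGGGAA. Both windows are shown with the RBPJ letters in capitals, *Atp1a4* from chr1:172258375-172258674 (minus strand, where the capitals read the motif's reverse complement) and *Ttc29* from chr8:78213092-78213391 (plus strand).
Atp1a4 promoter: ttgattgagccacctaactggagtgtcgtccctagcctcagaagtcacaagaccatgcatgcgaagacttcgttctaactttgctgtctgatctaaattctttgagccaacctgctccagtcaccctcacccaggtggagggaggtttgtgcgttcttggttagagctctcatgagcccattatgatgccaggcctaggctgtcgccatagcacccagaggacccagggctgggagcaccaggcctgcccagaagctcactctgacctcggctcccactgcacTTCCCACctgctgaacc
Ttc29 promoter: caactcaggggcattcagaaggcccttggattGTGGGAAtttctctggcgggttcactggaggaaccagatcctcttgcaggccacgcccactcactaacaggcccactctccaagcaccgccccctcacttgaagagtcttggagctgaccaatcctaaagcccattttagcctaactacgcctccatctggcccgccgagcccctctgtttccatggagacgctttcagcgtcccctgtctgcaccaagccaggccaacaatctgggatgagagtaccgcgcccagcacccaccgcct
*Atp1a4* had 40.5 and 61.3 in Etv5-KO and 974, 1021 and 1176 in RbpJ-KO (log2 fold change -4.37 ± 0.34 (SE), edgeR adjusted p = 1.78e-12), with 229, 268 and 106 in RGd2. *Ttc29* had 11.4 and 19.7 against 147, 145 and 116 (log2 fold change -3.11 ± 0.44 (SE), edgeR adjusted p = 1.61e-06), with 44.4, 36.6 and 46 in RGd2. Windows were matched for 8563 of the 11836 genes past the FPKM minimum (72.3%) and for 8 of the 12 leading genes of the other direction (66.7%), under the 80% required, so no motif share is compared between the called sets.

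The genes highest in Etv5-KO were of equally mixed kinds. *Ly6a*, the cell surface antigen Sca-1, had 444 and 361 in Etv5-KO, 8.93, 4.10 and 22.1 in RbpJ-KO and 0.74, 3.66 and 4.09 in RGd2 (34.4-fold higher in Etv5-KO than in RbpJ-KO, edgeR adjusted p = 1.10e-14). *Dio3*, the thyroid hormone inactivating deiodinase, had 385 and 262 against 20.8, 12.3 and 7.79, and 5.92, 13.1 and 9.21 in RGd2 (log2 fold change 4.5 ± 0.35 (SE), edgeR adjusted p = 1.15e-12). *Aox3*, an aldehyde oxidase, had 189 and 239 against 10.9, 9.57 and 13, and 15.5, 8.36 and 10.2 in RGd2 (log2 fold change 4.25 ± 0.34 (SE), edgeR adjusted p = 2.69e-12). For these genes RbpJ-KO and RGd2 were both low and the Etv5-KO libraries alone were high. *Neurog3*, a bHLH factor of endocrine progenitors, had 40.5 and 58.5 in Etv5-KO and 45.1, 54.3 and 49.1 in RGd2, and no RbpJ-KO library had more than 3 counts, a difference of at least 13.5-fold against the floor of 3 counts per library. *Krtdap* (35.9 and 19.7 in Etv5-KO) was likewise at the floor in RbpJ-KO, at least 7.6-fold lower. *Platr15* (3.65), *Ms4a10* (3.54), *Il17b* (3.37) and *Catip* (3.32) completed the set with *Gadd45g*, *H19* and *Myl9*. *Il17b* had few counts, at 27.5 and 14.8 in Etv5-KO against 3.97, 1.37 and 0 in RbpJ-KO. Its SE was 0.84, and the call was lost without clone c17. *Platr15* had 81.7 and 91.5 in Etv5-KO, 5.95, 2.73 and 11.7 in RbpJ-KO and 80.6, 78.9 and 42 in RGd2. For *Neurog3* and *Platr15*, therefore, RbpJ-KO was the low genotype.

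Among genes of high expression, the smallest p-values on the Etv5-KO side included the following. *Ckb*, brain-type creatine kinase, had 8954 and 9831 in Etv5-KO against 2658, 2484 and 2752 in RbpJ-KO (log2 fold change 1.84 ± 0.12 (SE), edgeR adjusted p = 3.46e-14). *Calcoco2*, an autophagy receptor, had 8133 and 9379.8 against 2445, 2491 and 2159 (log2 fold change 1.89 ± 0.15 (SE), edgeR adjusted p = 1.67e-12), with 766, 792 and 807 in RGd2. *Lgals1*, galectin-1, had 875 and 877 against 203, 168 and 213 (log2 fold change 2.17 ± 0.17 (SE), edgeR adjusted p = 2.22e-12), with 404, 473 and 431 in RGd2. For *Calcoco2* both mutants exceeded RGd2, whereas *Lgals1* in RGd2 lay between them. *Plin3*, a lipid droplet coat protein gene, had 6053 and 6472 against 2245, 2035 and 2268 (log2 fold change 1.52 ± 0.12 (SE), edgeR adjusted p = 1.15e-12).

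Naive pluripotency genes were higher in Etv5-KO than in RbpJ-KO. Of 20 naive genes 19 passed the FPKM minimum; 12 were higher in Etv5-KO, 1 (*Gbx2*) was higher in RbpJ-KO, and *Klf4*, *Nr5a2*, *Sall1*, *Tdh*, *Fbxo15* and *Morc1* were not called. The median log2 fold change was 0.47, against 0.09 for all genes, of which 12.3% were called higher in Etv5-KO and 5.55% in RbpJ-KO. *Tbx3*, a T-box factor that sustains the naive network, had 4547 and 4939 in Etv5-KO, 2158, 2158 and 2231 in RbpJ-KO and 709, 704 and 835 in RGd2 (log2 fold change 1.12 ± 0.17 (SE), edgeR adjusted p = 3.80e-06). *Nanog* had 15563 and 15438 in Etv5-KO, 12068, 11635 and 11364 in RbpJ-KO and 4399.7, 4466 and 4567 in RGd2 (log2 fold change 0.41 ± 0.11 (SE), edgeR adjusted p = 0.0112). Both mutants were above every RGd2 library for *Tbx3* and *Nanog*, and Etv5-KO was the higher of the mutants. The adhesion gene *Jam2* (6092 and 6125 against 2096, 1845 and 2085, log2 fold change 1.6 ± 0.17 (SE), edgeR adjusted p = 4.67e-09) showed the widest gap. *Tcl1*, an AKT cofactor, followed (1392 and 1344 against 630.0, 583 and 540.0, log2 fold change 1.23 ± 0.15 (SE), edgeR adjusted p = 5.39e-08). RGd2 had 1691, 1654 and 1768 for *Jam2* and 496, 485 and 328 for *Tcl1*. *Esrrb* (0.48), *Zfp42* (0.48), *Tfcp2l1* (0.47), *Prdm14* (0.64), *Nr0b1* (0.54), *Klf5* (0.5), *Klf2* (0.7) and *Tet2* (0.42) were higher by smaller steps, *Klf2* not with TMM. *Klf4* was at 1077 and 1076 against 945, 919.6 and 966 (log2 fold change 0.19, edgeR adjusted p = 0.447). *Gbx2*, a homeobox gene that marks both naive and early post-implantation states, had 532 and 635 in Etv5-KO against 936, 999 and 1314 in RbpJ-KO (log2 fold change -0.89 ± 0.19 (SE), edgeR adjusted p = 6.84e-04), and 1069, 918 and 985 in RGd2. *Dppa3* was below the FPKM minimum, with 18.3 and 14.8 against 5.95, 0 and 0. Without clone c1 4 of the naive genes passed as higher in Etv5-KO, and without clone c17 6; *Nanog* and *Tfcp2l1* lost the call without either clone.

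Of 12 genes shared by naive and formative pluripotency, 4 were higher in Etv5-KO (*Sall4* 0.67, *Lin28a* 0.48, *Dppa2* 0.4 and *Dppa4* 0.4) and 7 were not called. Without clone c1, 1 of the 4 passed. *Pou5f1* was at 34715 and 35189.6 against 29231, 27953 and 30289 (log2 fold change 0.26, 95% interval 0.06 to 0.46, edgeR adjusted p = 0.0791).

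Formative genes went in both directions. All 20 passed the minimum, 8 were higher in Etv5-KO, 5 were higher in RbpJ-KO and 7, among them *Pou3f1*, *Otx2*, *Fgf5* and *Dnmt3a*, were not called. *Grhl2*, a grainyhead factor that opens epithelial enhancers in the formative epiblast, had 2366 and 2987 in Etv5-KO, 683, 668 and 779 in RbpJ-KO and 2633, 2419 and 2279.8 in RGd2 (log2 fold change 1.92 ± 0.17 (SE), edgeR adjusted p = 5.67e-11). Here Etv5-KO was at the RGd2 level and RbpJ-KO below it. *Lef1*, the Wnt effector, had 540.5 and 763 in Etv5-KO, 178, 219 and 219 in RbpJ-KO and 3711, 3393 and 2659 in RGd2 (log2 fold change 1.67 ± 0.20 (SE), edgeR adjusted p = 4.28e-08), so both mutants were below RGd2 and RbpJ-KO was the lower. *Foxd3* (888 and 1029 against 509.9, 406 and 546, log2 fold change 0.97 ± 0.25 (SE), edgeR adjusted p = 0.00454), *Pim2* (0.83), *Fgf15* (1.01), *Dnmt3l* (0.59) and *Dnmt3b* (0.54) were also higher in Etv5-KO. On the other side, *Sox11*, a SoxC factor, had 239 and 317 in Etv5-KO, 676, 669.6 and 793 in RbpJ-KO and 954, 894 and 661 in RGd2 (log2 fold change -1.36 ± 0.21 (SE), edgeR adjusted p = 6.50e-06). *Sox4* of the same family had 195 and 215 in Etv5-KO, 479, 378 and 504 in RbpJ-KO and 731, 643 and 659 in RGd2 (log2 fold change -1.15 ± 0.17 (SE), edgeR adjusted p = 5.68e-06). For both, Etv5-KO was the lowest of the 3 genotypes. *Lin28b* had 429.8 and 463 against 584, 821 and 999 (log2 fold change -0.84 ± 0.20 (SE), edgeR adjusted p = 0.00237). *Pou3f1*, the POU factor used as a formative marker, had 150.4 and 266 in Etv5-KO, 143, 171 and 196 in RbpJ-KO and 836, 627 and 436 in RGd2; the mutants overlapped (log2 fold change 0.3, 95% interval -0.22 to 0.82, edgeR adjusted p = 0.527). *Otx2* had 1546 and 1885 against 1590.2, 1444 and 1693 (log2 fold change 0.12, 95% interval -0.13 to 0.38, edgeR adjusted p = 0.612), again with overlapping libraries. Without clone c1, 3 formative genes passed as higher in Etv5-KO.

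**Figure D3:**
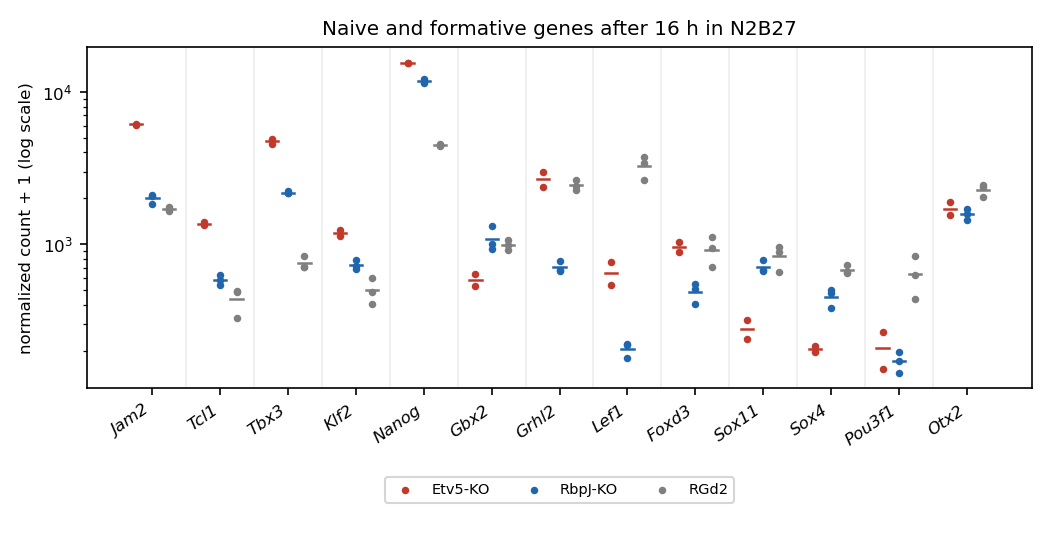
Normalized count + 1 (log scale) of naive genes (*Jam2* to *Gbx2*) and formative genes (*Grhl2* to *Otx2*) in each N16h library, points for libraries and lines for group means, with Etv5-KO in red, RbpJ-KO in blue and RGd2 in grey. *Tbx3* and *Nanog* fall from Etv5-KO to RbpJ-KO to RGd2, *Lef1* is lowest in RbpJ-KO, *Sox11* and *Sox4* are lowest in Etv5-KO, and *Pou3f1* overlaps between the mutants.

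The *Id* genes, which encode inhibitors of bHLH factors and are induced by BMP, did not move together. *Id2* had 172 and 175 in Etv5-KO, 19.8, 24.6 and 38.9 in RbpJ-KO and 43.6, 47 and 45 in RGd2 (log2 fold change 2.65 ± 0.31 (SE), edgeR adjusted p = 2.54e-08). *Id1* had 172 and 199 in Etv5-KO, 511, 629.9 and 495 in RbpJ-KO and 74, 71 and 119.7 in RGd2 (log2 fold change -1.56 ± 0.28 (SE), edgeR adjusted p = 1.03e-04). *Id3* had 712 and 799 in Etv5-KO, 1179.5, 1019 and 1014 in RbpJ-KO and 314, 366 and 265 in RGd2 (log2 fold change -0.5 ± 0.16 (SE), edgeR adjusted p = 0.0309). Thus *Id2* was higher in Etv5-KO while *Id1* and *Id3* were higher in RbpJ-KO, and *Id4* did not pass (-0.2, edgeR adjusted p = 0.622). The *Id3* call was lost without either Etv5-KO clone or without RbpJ-KO c28. Of 27 genes of the BMP, Nodal and activin pathways, 22 passed the minimum, 4 were higher in Etv5-KO, none was higher in RbpJ-KO in this fit, and 5 were so with TMM. The Nodal antagonist *Lefty1* had 669 and 884 against 190.5, 154 and 266 (log2 fold change 1.93 ± 0.19 (SE), edgeR adjusted p = 3.30e-10). *Lefty2* had 659.5 and 916 against 355, 280.1 and 450.4 (log2 fold change 1.12 ± 0.20 (SE), edgeR adjusted p = 6.49e-05). The ligand *Bmp7* (1.26) and the inhibitory *Smad6* (1.19) were the other members called; *Nodal* and the receptors were not.

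Of 25 genes that ERK signalling induces or that restrain it, 17 passed the minimum, 5 were higher in Etv5-KO, 3 were higher in RbpJ-KO and the *Spry* and *Spred* genes were not called. The phosphatase gene *Dusp4* had 1233 and 1422 in Etv5-KO and 651, 683 and 639.9 in RbpJ-KO (log2 fold change 1.01 ± 0.16 (SE), edgeR adjusted p = 1.75e-05), with 1420.0, 1281 and 1312 in RGd2. Its relative *Dusp1* ran the other way, 282 and 373 against 648, 635 and 771 (log2 fold change -1.06 ± 0.18 (SE), edgeR adjusted p = 2.65e-05). So did *Dusp6*, the ERK-specific phosphatase, with 2174 and 2427 against 2980.1, 2902 and 3496 (log2 fold change -0.44 ± 0.13 (SE), edgeR adjusted p = 0.0178). *Dusp1* was the firmer of these, since the *Dusp6* call was lost without either Etv5-KO clone or without RbpJ-KO c36. *Junb* (1.4), *Myc* (0.76), *Ier2* (0.71) and *Il17rd* (0.36) were higher in Etv5-KO. *Egr1*, the classical immediate early gene, was below the FPKM minimum with 72.5 and 50.7 against 10.9, 6.83 and 19.5 (log2 fold change 2.3, edgeR adjusted p = 1.83e-05). Of 16 FGF ligands and receptors 8 passed the minimum, and *Fgf15*, *Fgfrl1* (0.96), *Fgfr1* (0.37) and *Fgf4* (0.36) were higher in Etv5-KO, the last 2 not with TMM. None of the 4 passed without clone c1, and 2 passed without any 1 of the RbpJ-KO clones. *Fgf1* was lower (63.4 and 77.5 against 188, 191 and 239, log2 fold change -1.55 ± 0.40 (SE), edgeR adjusted p = 0.00596), but not without either Etv5-KO clone.

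In the Wnt list, 12 of 25 genes passed the minimum; *Lef1*, the secreted antagonist *Sfrp1* (1640.4 and 1570.5 against 769, 626 and 687, log2 fold change 1.21 ± 0.14 (SE), edgeR adjusted p = 3.25e-08) and the feedback gene *Axin2* (0.52) were higher in Etv5-KO. The homeobox target *Cdx1* was higher in RbpJ-KO (12.2 and 16.2 against 99.2, 47.8 and 105, log2 fold change -2.57 ± 0.34 (SE), edgeR adjusted p = 3.02e-07). The *Axin2* call was lost without either Etv5-KO clone, and also without RbpJ-KO c33 or c36. In the LIF and STAT3 list, 12 of 14 passed; *Socs2* was higher in RbpJ-KO (818 and 951 against 1671, 1677 and 1852, log2 fold change -0.97 ± 0.13 (SE), edgeR adjusted p = 4.95e-07). *Jak1* (0.46) and *Jak2* (0.56) were higher in Etv5-KO. Neither *Jak1* nor *Jak2* passed without Etv5-KO c1, RbpJ-KO c28 or RbpJ-KO c33. *Stat3* itself was not called (-0.18, edgeR adjusted p = 0.457). Of 10 DNA methylation genes, all past the minimum, 5 were higher in Etv5-KO (*Dnmt3l*, *Dnmt3b*, *Uhrf1* 0.49, *Tet2* and *Prdm14*) against 12.3% of all genes, and the median was 0.29. Of the 5, 1 passed without Etv5-KO clone c1 and 3 without clone c17. *Dnmt3l* had 16326 and 19309 in Etv5-KO, 11865, 11930.4 and 11800.1 in RbpJ-KO and 9775, 10092 and 7844 in RGd2. *Dnmt3b* had 7172 and 8463 in Etv5-KO, 5162, 5177 and 5805 in RbpJ-KO and 13899, 13012 and 9711 in RGd2. The mutants were above RGd2 for *Dnmt3l* and below it for *Dnmt3b*. *Dnmt3a* leaned the other way without a call (-0.33), and with TMM it passed as higher in RbpJ-KO (-0.42, edgeR adjusted p = 8.28e-04). Apart from *Uhrf1*, the called genes of this list are also counted in the naive or formative list.

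Genes of the actin cytoskeleton and focal adhesions had the largest share of calls toward Etv5-KO of the lists plotted. Of 33 genes, 25 passed the minimum, 18 were higher in Etv5-KO (the background share being 12.3%), none was higher in RbpJ-KO in this fit (2 with TMM), and the median log2 fold change was 0.71. *S100a6*, a calcium-binding protein gene, had 1367 and 1130.3 in Etv5-KO, 164, 142 and 173 in RbpJ-KO and 23.7, 20.4 and 76.8 in RGd2 (log2 fold change 2.97 ± 0.36 (SE), edgeR adjusted p = 4.64e-08). *Anxa2*, annexin A2, had 1973 and 1820.5 in Etv5-KO, 429, 484 and 699.6 in RbpJ-KO and 204, 233 and 257 in RGd2 (log2 fold change 1.82 ± 0.20 (SE), edgeR adjusted p = 6.45e-09). *Cnn2*, calponin 2, had 2362 and 2397 in Etv5-KO, 761, 801 and 719 in RbpJ-KO and 1004, 928 and 809 in RGd2 (log2 fold change 1.65 ± 0.15 (SE), edgeR adjusted p = 4.70e-11). *S100a6* and *Anxa2* were above RGd2 in both mutants, while *Cnn2* was above RGd2 in Etv5-KO and below it in RbpJ-KO. *Myl9*, a myosin regulatory light chain, had 102 and 120.4 against 11.9, 10.9 and 11.7 (log2 fold change 3.25 ± 0.39 (SE), edgeR adjusted p = 5.24e-08). Without clone c1, 11 of the list passed.

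Cell surface and matrix genes changed singly. Of integrins, *Itgb5* had 1014 and 1066 in Etv5-KO against 432, 411 and 423 in RbpJ-KO (log2 fold change 1.3 ± 0.13 (SE), edgeR adjusted p = 1.49e-09). *Itga9* (0.53) and *Itgav* (0.46) were also higher and *Itgb1* lower (-0.41), among 10 past the minimum of 20. Without either Etv5-KO clone or RbpJ-KO c33 *Itgb5* alone of these passed. P-cadherin, *Cdh3*, had 796 and 1079.6 against 233, 245 and 229.8 (log2 fold change 1.99 ± 0.25 (SE), edgeR adjusted p = 1.50e-07). *Celsr3* (0.97) and *Cdh24* (0.66, not with TMM) were the other cadherin genes called, of 5 past the minimum of 15; *Cdh1* was not called. The tight junction gene *Cldn4* had 1637 and 1824 against 657, 599.9 and 727 (log2 fold change 1.39 ± 0.14 (SE), edgeR adjusted p = 1.09e-09). *Perp*, a desmosomal gene, had 96.2 and 92.3 against 238, 269 and 280.4 (log2 fold change -1.48 ± 0.21 (SE), edgeR adjusted p = 2.25e-06), within 11 simple epithelium genes of which 4 were higher and 1 lower in Etv5-KO (2 higher without clone c1 or RbpJ-KO c28). Of 23 collagens 6 passed the minimum. *Col5a1* was higher in Etv5-KO (1202 and 1282 against 553, 508 and 429.6, log2 fold change 1.32 ± 0.16 (SE), edgeR adjusted p = 3.02e-08). *Col13a1* (187 and 212 against 566, 469 and 519, log2 fold change -1.38 ± 0.23 (SE), edgeR adjusted p = 1.84e-05), *Col4a1* and *Col4a2* were higher in RbpJ-KO; of these 3, 1 passed without either Etv5-KO clone or RbpJ-KO c36. Of 11 laminin chains 6 passed, with *Lama5* higher in Etv5-KO (0.5, not without clone c1 or RbpJ-KO c33) and *Lama1* higher in RbpJ-KO.

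**Figure D4:**
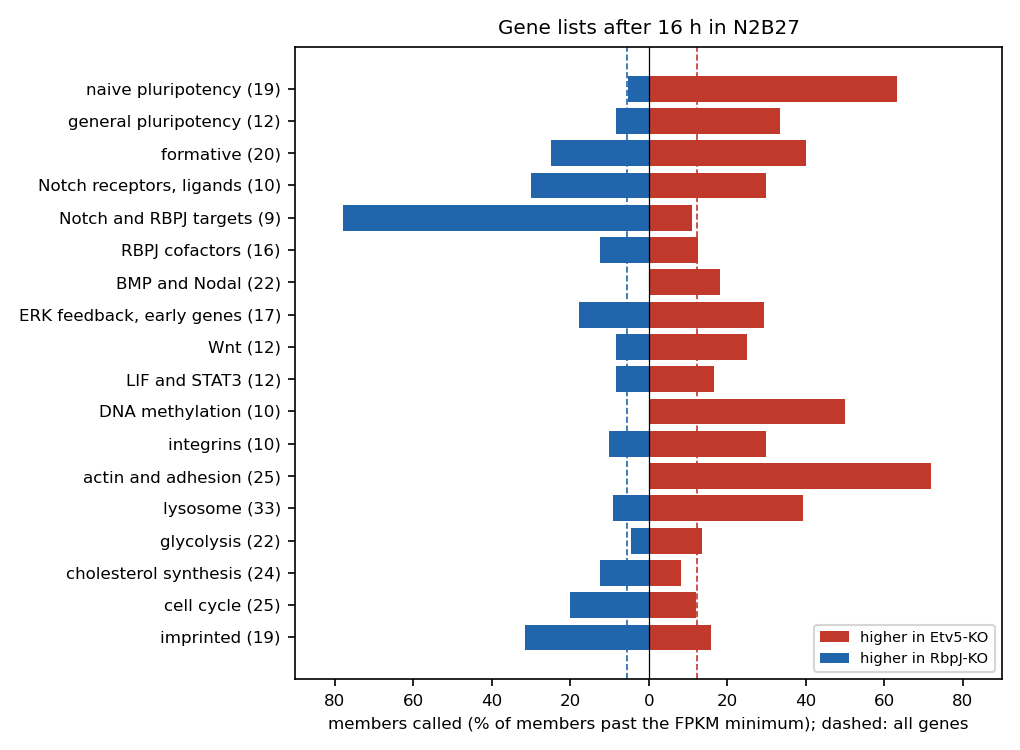
Share of the members past the FPKM minimum (number in brackets) that were called higher in Etv5-KO (red, to the right) or higher in RbpJ-KO (blue, to the left) at N16h, for 18 gene lists; dashed lines are the shares over all 11836 genes, 12.3% and 5.55%. Actin and adhesion (18 of 25) and naive genes (12 of 19) reach furthest to the right, and Notch and RBPJ targets (7 of 9) furthest to the left.

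The basement membrane and primitive endoderm differences rested largely on RbpJ-KO clone c36. *Cubn*, the endocytic receptor cubilin of visceral endoderm, had 5.34 and 11.3 in Etv5-KO and 117, 268 and 1552 in RbpJ-KO c28, c33 and c36 (log2 fold change -6.24 ± 1.21 (SE), edgeR adjusted p = 2.22e-04). *Gata6*, the defining factor of primitive endoderm, had 13 and 10.6 against 31.8, 75.2 and 236 (log2 fold change -3.26 ± 0.94 (SE), edgeR adjusted p = 0.0147). *Dab2*, an endocytic adaptor, had 58.8 and 42.2 against 49.6, 64.2 and 523 (log2 fold change -2.06 ± 0.67 (SE), edgeR adjusted p = 0.0319). *Col4a1* had 834 and 937 against 1882, 2409 and 10339.8 (log2 fold change -2.46 ± 0.65 (SE), edgeR adjusted p = 0.00661). *Col4a2* had 359 and 406 against 784, 1177 and 4682 (log2 fold change -2.53 ± 0.63 (SE), edgeR adjusted p = 0.00395). *Lama1* had 1058 and 1048 against 1223, 1407 and 7212 (log2 fold change -1.64 ± 0.53 (SE), edgeR adjusted p = 0.0328). In each case c36 was several times above the other RbpJ-KO clones. The excess of c36 was also there in 2i for most of these genes. *Col4a1* had 1559, 1443 and 7934 in c28, c33 and c36 in 2i, *Cubn* 80, 68.1 and 457, and *Gata6* 6.31, 17 and 136. *Lama1* was closer in 2i, at 3989, 2973 and 5112. Without c36, *Gata6* (-2.15), *Dab2* (-0.16), *Col4a1* (-1.28), *Col4a2* (-1.35) and *Lama1* (-0.32) lost the call, with edgeR adjusted p between 0.123 and 0.916, and *Cubn* kept it (log2 fold change -4.48, edgeR adjusted p = 0.00598). The other markers of the list were below the FPKM minimum, such as *Pdgfra* at 28.2 and 11.3 against 23.8, 31.4 and 327, and *Gata4* at 35.1 and 14.1 against 34.7, 28.7 and 191. In RGd2 the clonal library was also the highest for *Col4a1*, at 354, 335 and 1358 in the 3 libraries. The part of cells of another type in these differences was not tested, and in bulk RNA more cells of a type and more RNA per cell cannot be told apart.

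Other lineage markers showed single genes rather than lists. In the neural list, with 4 of 11 past the minimum, *Pax6*, the neural and eye factor, had 139.7 and 170.4 in Etv5-KO, 749, 697 and 742 in RbpJ-KO and 515, 494 and 236 in RGd2 (log2 fold change -2.23 ± 0.26 (SE), edgeR adjusted p = 3.42e-08). *Nes* was higher in RbpJ-KO as above, *Tubb3* was higher in Etv5-KO (1079 and 1194 against 584, 594 and 522, log2 fold change 1.0 ± 0.13 (SE), edgeR adjusted p = 2.45e-07) and *Sox1* was not called. In the trophoblast list *Ascl2* was higher in Etv5-KO (136 and 169 against 27.8, 39.6 and 13, log2 fold change 2.51 ± 0.42 (SE), edgeR adjusted p = 2.39e-05), with *Cdx2* and *Hand1* below the minimum. Mesendoderm gave no call, with *Eomes* the only member of 12 past the minimum, and no gene of the 2-cell-like list reached it. The summed level of the 2-cell-like genes was 0.546 to 1.04 FPKM over both mutants, all of them clonal lines. In RGd2 it was 27.3 and 26.2 FPKM in the parental line and 3.07 FPKM in the clonal derivative. Of 17 germ cell genes 10 passed, *Tuba3a* (1.34) and *Stag3* (0.63) being higher in Etv5-KO and *Sycp3* lower (-1.25).

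Lysosomal genes leaned to Etv5-KO. Of 35 genes 33 passed the minimum, 13 were higher in Etv5-KO, 3 were higher in RbpJ-KO and the median was 0.27. Over all genes these were 12.3%, 5.55% and 0.09. The tetraspanin *Cd63* had 555 and 561 against 273, 257 and 280.4 (log2 fold change 1.05 ± 0.23 (SE), edgeR adjusted p = 0.00112). *Cd68* had 872 and 1039 against 548, 545 and 511 (log2 fold change 0.84 ± 0.18 (SE), edgeR adjusted p = 6.01e-04). The protease *Ctsc* had 149.6 and 204 against 307, 316 and 413 (log2 fold change -0.96 ± 0.21 (SE), edgeR adjusted p = 9.55e-04). *Laptm4b* had 669 and 786 against 1182, 1160.1 and 1394 (log2 fold change -0.77 ± 0.15 (SE), edgeR adjusted p = 1.84e-04). The count was 5 without clone c1 and 8 without RbpJ-KO c28 or c33. Of 23 glycolysis genes 22 passed and 18 were not called. The 3 higher and 1 lower in Etv5-KO were close to the shares over all genes, with an opposed pair of larger size. *Pfkm*, muscle-type phosphofructokinase, had 4466 and 4894 against 1759, 1829.7 and 2011 (log2 fold change 1.33 ± 0.13 (SE), edgeR adjusted p = 2.13e-10). *Slc2a1*, the glucose transporter GLUT1, had 6240.4 and 7157 against 13808, 14632 and 15685 (log2 fold change -1.13 ± 0.14 (SE), edgeR adjusted p = 1.36e-07). *Ldhb* (0.56) and *Eno1* (0.41) were higher in Etv5-KO by less, and not without either Etv5-KO clone. Of 24 cholesterol synthesis genes, 2 were higher (*Fdft1* 0.66, *Sqle* 0.54) and 3 lower in Etv5-KO (10 with TMM), among them *Cyp51* (-0.47) and *Insig1* (-0.36); without clone c17 none of the 3 passed, and without RbpJ-KO c33 or c36 1 did. No gene of the mitochondrial genome was called of 9 past the minimum.

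In the cell cycle list, 3 of 25 genes past the minimum were higher in Etv5-KO and 5 in RbpJ-KO. The number higher in Etv5-KO was close to the 12.3% over all genes, and 5.55% of all genes were higher in RbpJ-KO. Without clone c1 none was higher, and the number lower was 2 without c17 and 3 without RbpJ-KO c36. *Ccnd2*, cyclin D2, had 592 and 537 in Etv5-KO, 3385, 3049.9 and 3262 in RbpJ-KO and 2036, 2257 and 2102 in RGd2 (log2 fold change -2.52 ± 0.35 (SE), edgeR adjusted p = 7.44e-07), so Etv5-KO was below and RbpJ-KO above RGd2. The inhibitor *Cdkn2b* had 47.3 and 49.3 against 125, 90.2 and 98.7 (log2 fold change -1.12 ± 0.26 (SE), edgeR adjusted p = 0.00177). The imprinted inhibitor *Cdkn1c* had 323 and 451 against 57.5, 61.5 and 58.4 (log2 fold change 2.71 ± 0.75 (SE), edgeR adjusted p = 0.00987). The RGd2 libraries themselves spread over 1299, 1077 and 109, the clonal derivative being the low one, and the call was lost without Etv5-KO clone c1. Of 23 imprinted genes 19 passed, 3 were higher in Etv5-KO (1 without clone c1) and 6 in RbpJ-KO (2 without clone c17). *H19*, the maternally expressed noncoding RNA, had 693 and 719 against 43.6, 36.9 and 117 (log2 fold change 3.44 ± 0.42 (SE), edgeR adjusted p = 8.72e-08), with 103, 105 and 132 in RGd2. Its neighbour *Igf2*, below the minimum, had 55.7 and 68.3 against 9.92, 8.20 and 27.3 (2.05). *Nnat* had 29 and 58.5 against 126, 224 and 187 (log2 fold change -2.01 ± 0.34 (SE), edgeR adjusted p = 3.35e-05). *Slc38a4* had 1676 and 2116 against 2712, 3744 and 4659.8 (log2 fold change -0.97 ± 0.27 (SE), edgeR adjusted p = 0.0113). The noncoding RNAs *Meg3*, *Rian* and *Mirg*, which lie in a row on chromosome 12 (chr12:109541001-109749460) and were picked after their values were seen, were all higher in RbpJ-KO, at -0.73, -0.9 and -0.83. *Dio3*, further along the same chromosome (chr12:110279068-110281097), went the other way, at 4.5. *Rian* had 6968 and 7860.1 in Etv5-KO, 13368, 13835 and 14375 in RbpJ-KO and 8377, 8357 and 5205 in RGd2. The *Meg3* call was lost without either Etv5-KO clone, and the *Mirg* call without clone c17.

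The same contrast was made in 2i, the culture before release. In 2i, 629 genes were higher in Etv5-KO (5.47% of 11507 past the minimum) and 2396 in RbpJ-KO (20.8%), together 26.3%. This is the reverse of the balance at N16h, but with TMM the counts were 1733 and 1703. Of the 657 genes that RbpJ-KO had higher at N16h, 477 were so in 2i as well (72.6% of the N16h list, 19.9% of the 2i list), and 4 were called the other way. Of the 1460 higher in Etv5-KO, 351 were so in 2i (24.0% and 55.8%) and 75 were called the other way. Each of the 5 clones at N16h also had a library in 2i, so these contrasts share cell lines but no library. The overlaps count calls, so they miss genes that differed in 2i below the FPKM minimum there. *Dll1* (log2 fold change 3.17 in 2i) and *Sox11* (-1.7) were such genes. The overlaps were counted with spike-in scaling only, and how far the unlike shares of the directions depend on it was not tested. *Nes* (-3.64 in 2i), *Jag1* (-2.18), *Trh* (-3.79), *Id2* (2.74), *Lefty1* (2.24) and *Cdh3* (2.27) differed about as much in 2i as at N16h, and none of their response differences was called.

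The response difference, the N16h contrast minus the 2i contrast tested in one model, was above 0 in 1245 genes (10.2% of 12218 past the minimum) and below 0 in 73 (0.597%). Its median over all genes tested was 0.25, and 0.00 with TMM, where 649 and 369 genes passed. Fitted on the compared libraries alone 2177 and 146 passed, and on those libraries with the clonal line as a block 2843 and 156. The values with TMM, about 0.25 lower, are given beside the spike-in values. *Notch4* was at 29.3, 38.8 and 30.9 in Etv5-KO and 1209.9, 916 and 972 in RbpJ-KO in 2i and came within about 2-fold at N16h (response difference 3.97, edgeR adjusted p = 5.72e-16; 3.71 with TMM). *Dusp6* was at 95.4, 70.1 and 75.7 against 625, 598 and 512 in 2i, and at 2174 and 2427 against 2980.1, 2902 and 3496 at N16h (response difference 2.39, edgeR adjusted p = 8.96e-12; 2.15 with TMM). *Myc*, at 57.8, 44.8 and 50.5 against 159.9, 120.0 and 149 in 2i, changed order (response difference 2.22, edgeR adjusted p = 1.75e-08; 1.97 with TMM). *Id3*, at 179.7, 140.2 and 161 against 1004, 795 and 707 in 2i, narrowed (response difference 1.86, edgeR adjusted p = 1.45e-07; 1.61 with TMM). *Dusp6*, *Myc* and *Id3* were thus several times lower in Etv5-KO than in RbpJ-KO under 2i, and at N16h *Myc* was higher and the others were less far below.

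*T* (brachyury) went in RbpJ-KO from 189, 159 and 108 in 2i to 3.97, 8.20 and 9.09 at N16h and was at 11.8, 15.2 and 12 and then 21.4 and 14.8 in Etv5-KO (response difference 4.9, edgeR adjusted p = 4.92e-07; 4.65 with TMM). *Fgf5*, a formative marker, was near 0 in 2i in Etv5-KO (0, 0 and 0.63) against 4.21, 8.06 and 9.25 in RbpJ-KO and overlapped at N16h, 43.5 and 106 against 45.6, 65.6 and 104 (response difference called, edgeR adjusted p = 0.00759, but with at most 3 counts in every Etv5-KO library in 2i its size is not given). Among the genes below 0, the gap of *Prickle1* and *Ackr4*, called in 2i already, widened after release, and that of *Spic* opened. *Prickle1* went in RbpJ-KO from 827, 655 and 693 in 2i to 1876, 1856 and 2152 at N16h and in Etv5-KO from 204, 217 and 207 to 48.9 and 76.1 (response difference -3.18, edgeR adjusted p = 3.26e-11; -3.44 with TMM). *Spic*, an ETS-family factor gene, differed little in 2i, 519.7, 548 and 503 against 574, 646 and 595 (log2 fold change -0.21), and at N16h was at 26.8, 21.9 and 15.6 in RbpJ-KO and at 3 counts or fewer in both Etv5-KO libraries, at least 9.73-fold lower. *Ackr4*, a chemokine scavenging receptor, went from 138, 103 and 102 against 213, 214 and 215 to 2.29 and 4.23 against 122, 97 and 104 (response difference -4.09, edgeR adjusted p = 7.70e-08; -4.33 with TMM). Of the naive genes, *Tbx3* overlapped in 2i, 5839, 5123 and 4920.2 against 5608, 4125 and 4617, and parted at N16h (response difference 0.97, edgeR adjusted p = 0.00418; 0.72, edgeR adjusted p = 0.0212 with TMM), and 6 of the 20 had a response difference above 0 (10.2% over all genes), none below. With TMM 3 of these 6 passed (*Tbx3*, *Klf5* and *Zfp42*), and *Prdm14*, *Nanog* and *Klf4* did not.

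**Figure D5:**
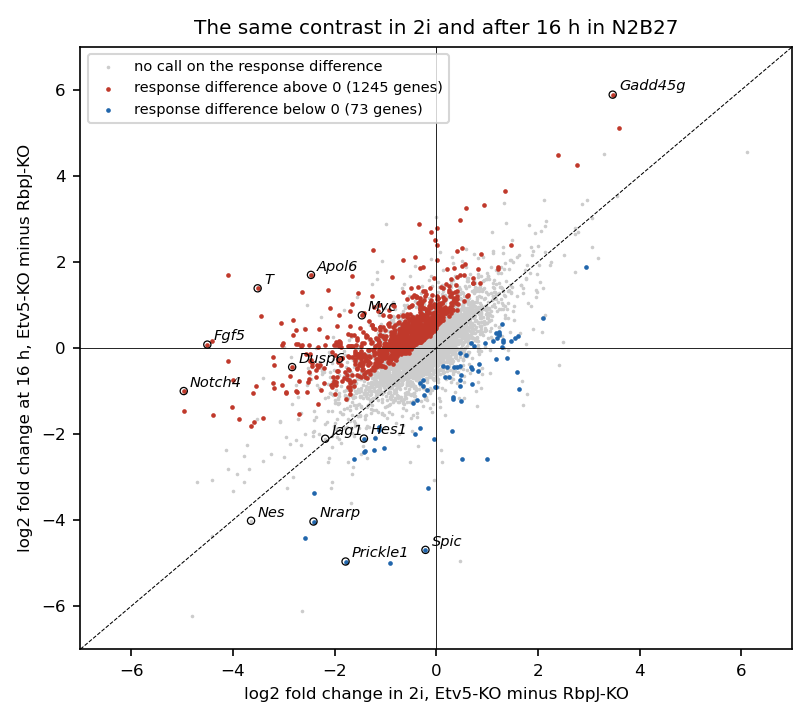
Log2 fold change Etv5-KO minus RbpJ-KO in 2i (horizontal) against the same at N16h (vertical), one point per gene, with the diagonal of equal difference dashed; red and blue mark the 1245 and 73 genes whose response difference was above or below 0. *Notch4* and *T* lie far above the diagonal, *Prickle1* and *Spic* below it, and *Nes* and *Jag1* close to it.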

How the data were processed

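The authors sequenced strand-specific, ribosomal RNA-depleted libraries with added spike-ins, ran Trim Galore on the reads and TopHat2 against the GRCm38 (mm10) genome, and counted unique primary alignments per GENCODE gene with featureCounts by strand; the versions of these tools are not given in the sources used here. The deposited values are raw counts per gene, and the table holds all 32 libraries, 51826 genes and 92 spike-ins. IDs without a symbol (193) held 0.0259% of counts.

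Libraries were scaled by median-of-ratios factors from 52 spike-ins above 0 in every library. Counts were fitted in edgeR 4.0.16 (R 4.3.3, limma 3.58.1; quasi-likelihood, filterByExpr) over all 32 libraries, leaving 19037 genes. A gene was called at a Benjamini-Hochberg adjusted p under 0.05 and a mean of at least 1 FPKM, computed from the counts and gene lengths, in a compared group. Where every library of a group had at most 3 counts, a bound against 3 counts per library was given. Alternatives were other scalings, DESeq2 1.42.0, other filters, the compared libraries alone, a 1.5-fold minimum and leaving out each library. The cultures are paired by clonal line, as the labels name it; deviations of the same clone in both cultures correlated at -0.0412 to 0.11 across genes, highest for RbpJ-KO c36. On counts simulated for the N16h contrast over 19037 genes, 90 of 100 genes changed 2-fold and 100 of 100 changed 4-fold were recovered, with 8 unchanged genes called. The changed genes were drawn only from better-expressed genes, and the size factors were taken as known. Recovery of genes with low counts and the effect of scaling errors were therefore not covered.

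Named genes were the targeted genes, up to 8 (main lists) or 4 (other lists) called members per list by size, the 12 largest and the 8 of smallest p per direction, leaving out predicted genes, and 6 response differences per direction; genes named to account for a list were added. The comparison, members and lists were chosen with earlier results of these data known. Scripts were in Python 3.11.15 (pandas 2.3.3, scipy 1.17.1). The value of 1 list member is not reported here.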

Additional observations from a re-analysis of the deposited data

Results flagged for a closer look

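The contrast between Etv5-KO and RbpJ-KO differed between the cultures in the genes below, by edgeR's test of the response difference itself (log2, N16h contrast minus 2i contrast, adjusted p under 0.05), which is what marked them. With TMM each value was about 0.25 lower, and 6 of the genes no longer passed: *Dusp4* (0.80, edgeR adjusted p = 0.179), *Slc38a4* (1.06, 0.135), *Ly6a* (1.28, 0.0798), *Platr15* (2.07, 0.0745), *Aox3* (1.24, 0.07) and *Gadd45g* (2.17, 0.0511). No formal test for an outlying library was applied to groups of 2 and 3; the RbpJ-KO c36 library is described with the primitive endoderm genes.

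Among Notch pathway genes, *Nrarp* (-1.62) and *Prickle1* (-3.18) moved toward RbpJ-KO, and *Notch4* (3.97) and *Gadd45g* (2.42) toward Etv5-KO. Genes of the ERK list moved toward Etv5-KO: *Dusp6* (2.39), *Myc* (2.22), *Junb* (1.9), *Dusp4* (1.05) and *Ier2* (1.0). Genes of pluripotency, germ layer and BMP or Nodal signalling did so as well: *Fgf5* (4.58), *Fgf15* (2.67), *T* (4.9), *Grhl2* (1.41), *Foxd3* (1.46), *Dnmt3l* (1.15), *Lin28a* (1.12), *Id3* (1.86), *Id4* (1.46) and *Lefty2* (1.23). Among genes of the cytoskeleton, adhesion and matrix, the values were *Myl9* (2.67), *S100a6* (2.5), *Cnn2* (1.23), *Itga9* (1.8) and *Lama5* (1.0).

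Toward RbpJ-KO stood also *Spic* (-4.48), *Ackr4* (-4.09), *Pga5* (-3.56), *Mogat2* (-3.11), *Ltb* (-2.58) and *Apln* (-1.83). Toward Etv5-KO stood also *Cd68* (1.16), *Slc38a4* (1.31), *Aox3* (1.48), *Ly6a* (1.51), *Pfkm* (1.55), *Dio3* (2.1), *Platr15* (2.31), *Catip* (2.39), *Slamf9* (3.94), *Apol6* (4.17) and *Spn* (4.2). *Spic* and *Mogat2* had at most 3 counts in both Etv5-KO libraries at N16h, so their values depend on how low counts are fitted, and against that floor RbpJ-KO was at least 9.73-fold and 5.16-fold higher. *Fgf5* and *Slamf9* likewise had at most 3 counts in every Etv5-KO library in 2i, so their sizes are no measure of the change. No explanation of these differences was tested.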

How the results depend on the processing

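No paired analysis was possible because the N16h groups share no clone or replicate number. The response difference could be fitted with the clonal line as replicate block, giving 2843 genes above and 156 below 0, against 2177 and 146 on the same libraries without the block and 1245 and 73 over all libraries. It changed none of the 12 response differences named by size.

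At N16h, the genes lower in Etv5-KO numbered 1469 with TMM and 1491 with median-of-ratios factors from the genes, against 657. Fitting the compared libraries alone gave 2688 higher and 1204 lower, and a 1.5-fold minimum left 817 higher. In 2i, the genes higher in Etv5-KO numbered 1733 with TMM, 1747 with median-of-ratios factors, 971 with no FPKM minimum and 409 at 1.5-fold, where 1135 were lower. The response difference gave 649 and 369 with TMM, 653 and 388 with median-of-ratios factors. With TMM the lists counted as lower in Etv5-KO 2 naive, 5 Notch receptor and ligand, 5 BMP and Nodal, 2 actin and 5 lysosomal genes.

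Leaving out 1 library gave 590 to 1264 higher and 314 to 555 lower at N16h, 460 to 632 and 1458 to 2469 in 2i (460 without RbpJ-KO c33, 1458 without Etv5-KO c1), and 447 to 1637 and 37 to 71 for the response difference. That count fell to 447 without Etv5-KO c1 at N16h, 681 without it in 2i, 796 without RbpJ-KO c28 in 2i and 818 without c33 at N16h. Called higher were 4 to 10 naive, 3 to 8 formative, 3 to 4 ERK, 11 to 16 actin and 5 to 13 lysosomal genes, and called lower 1 to 2 ERK and 1 to 2 lysosomal genes. Of 159 named genes past the threshold, 94 stayed past it in the same direction under every alternative run; 40 lost it without Etv5-KO c17, 57 without c1, 4 with TMM and 6 with DESeq2.

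Uncalled *Fgf5* turned to -0.02 with TMM, -0.01 with median-of-ratios factors, -0.70 without Etv5-KO c1 and -0.18 without RbpJ-KO c28. Without Etv5-KO c1, *Pou3f1* turned to -0.17 and *Otx2* to -0.03. Without c17 the values were highest, at 0.58 for *Fgf5*, 0.65 for *Pou3f1* and 0.26 for *Otx2*. The cause of these changes was not tested. Depth limits genes near the floor of 3 counts per library.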
